A study of Chlamydomonas reinhardtii with 18 samples.

Results

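In the green alga Chlamydomonas reinhardtii 3 triose phosphate translocator genes were followed in an 18-library RNA-seq experiment on a mutant of one of them. The 3 genes were the locus Cre08.g379350, which the deposited table gives without a symbol, and the genes with the symbols TPT2 (Cre12.g490100) and TPT3 (Cre01.g045550). They were taken by identifier or symbol, with no use of their values, from the 17693 genes in the table, and all 3 passed the filter on low values. Only 4408 of the genes in the table have a symbol, so other family members without a symbol would not have been found. Cre08.g379350 is treated as CreTPT10, the gene disrupted in the mutant, an assignment that rests on background knowledge of the locus. The mutant tpt10b is labelled a CreTPT10 knockout and was compared with the wild type (WT), both in the CC-4532 background. The groups were tpt10b at 0 h in low light, tpt10b after 24 h of darkness, tpt10b after 48 h of darkness, and the same 3 times for WT, with 3 libraries each. All cultures grew in TAP, a medium with acetate as a carbon source, under low light (30 µmol photons per square metre and second by the labels, given as approximate) until mid-log phase, and the 0 h cells were taken just before the lamps went off. One mutant line was sequenced, with no second allele and no complemented line among these samples.

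Triose phosphate translocators sit in the inner envelope of the chloroplast. They exchange triose phosphates and 3-phosphoglycerate for inorganic phosphate, so that carbon fixed in the light, or released from starch in the dark, can pass between the chloroplast and the cytosol. TPT3 is known in Chlamydomonas as a main route of triose phosphate export in the light, and TPT2 and CreTPT10 are its relatives in the same family.

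Levels are given in TPM, a share of all transcripts scaled to a fixed sum and corrected for the deposited gene length. Comparing levels between genes assumes that these lengths match the stretches over which reads were counted, which was not checked. Behind the TPM levels lay 59603478 to 87965038 recovered reads per library. Some libraries stood apart: WT 48 h replicate 2 correlated at 0.970 and 0.975 across genes with the other WT 48 h libraries, and the tpt10b 24 h libraries at 0.980 to 0.985 with each other, against 0.992 to 0.998 for the other pairs within groups. The tpt10b 24 h libraries also held 15490 to 16231 genes with reads, against 16316 to 16901 in the other libraries. TPM has the same total in every library, so a second scale was used for each difference, median-of-ratios rescaling, which sets a library's typical gene level. In TPM as deposited the median log2 difference of all 14731 tested genes between tpt10b and WT was 0.41 at 0 h, -0.23 at 24 h and 0.12 at 48 h, and rescaling moved it to -0.03, 0.04 and 0.01. For 24 h against 0 h it moved from -0.53 to -0.06 in tpt10b and from 0.21 to 0.00 in WT. Differences are on the log2(TPM + 1) scale, each with its standard error (SE) from a limma fit across all tested genes, and a gene was called at a Benjamini-Hochberg adjusted p under 0.05. In bulk RNA, fewer cells with a transcript and less transcript per cell cannot be told apart.

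The targeted transcript was low, but not absent, in tpt10b at every time. At 0 h Cre08.g379350 stood at 8.28, 7.61 and 6.61 TPM in the tpt10b libraries, against 62.2, 55.4 and 57.2 TPM in the WT libraries. At 24 h it stood at 1.28, 2.94 and 1.39 TPM in tpt10b, against 38.2, 32.8 and 43.9 TPM in WT. At 48 h the values were 6.53, 5.59 and 6.47 TPM in tpt10b, against 47.4, 85.4 and 59.8 TPM in WT. At each time every tpt10b library lay below every WT library, with no overlap. The mean in tpt10b was 12.9% of the WT mean at 0 h, 4.88% at 24 h and 9.66% at 48 h. The log2 difference was -2.81 ± 0.21 at 0 h (adjusted p = 1.19e-07), -3.81 ± 0.21 at 24 h (adjusted p = 6.97e-09) and -3.14 ± 0.21 at 48 h (adjusted p = 7.86e-08). At 48 h it was the lowest log2 difference of all tested genes. The reads behind the mutant's values numbered 612 to 923 per library at 0 h, 162 to 300 at 24 h and 451 to 605 at 48 h, so the transcript was detected in every mutant library. Which stretch of the gene these reads cover is not given by a table of gene totals.

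In WT, Cre08.g379350 dipped in the first day of darkness and stood near its starting level after the second. Its mean was 58.3 ± 3.53 TPM at 0 h, 38.3 ± 5.57 TPM at 24 h and 64.2 ± 19.4 TPM at 48 h (SD, n = 3 each). All 3 WT libraries at 24 h lay below all 3 at 0 h, while those at 48 h overlapped them. The transcript fell by 0.60 on the log2 scale at 24 h against 0 h (SE 0.21, adjusted p = 0.0162) and by 0.89 after rescaling (adjusted p = 0.00451). This call was lost without WT 0 h replicate 1 (-0.55, adjusted p = 0.0505) or without WT 24 h replicate 2 (-0.50, adjusted p = 0.0712). At 48 h against 0 h the difference was 0.10 ± 0.21 (adjusted p = 0.685) and -0.03 after rescaling. Against 24 h, the 48 h libraries differed by 0.70 ± 0.21 (adjusted p = 0.0120), and 0.47 without the library that stood apart, WT 48 h replicate 2, or 0.59 without WT 24 h replicate 2, neither of which passed (adjusted p = 0.0632 and 0.0556).

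The transcript left in the mutant moved in the same order. It averaged 7.50 ± 0.839 TPM at 0 h, 1.87 ± 0.931 TPM at 24 h and 6.20 ± 0.524 TPM at 48 h in tpt10b (SD, n = 3 each). The fall at 24 h against 0 h was -1.61 ± 0.21 (adjusted p = 2.03e-06), and the later rise at 48 h against 24 h was 1.37 ± 0.21 (adjusted p = 1.93e-05), both without overlap between groups and both called after rescaling (-1.12 and 1.11). After 48 h it differed from 0 h by -0.24 ± 0.21 (adjusted p = 0.307). The change over the first day was 1.01 ± 0.29 log2 units more negative in tpt10b than in WT, given as an interaction of -1.01 (adjusted p = 0.00661). After rescaling that interaction was -0.23 (adjusted p = 0.621), and the pseudocount of 1 shortens differences at levels as low as those of the mutant.

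**Figure D1:**
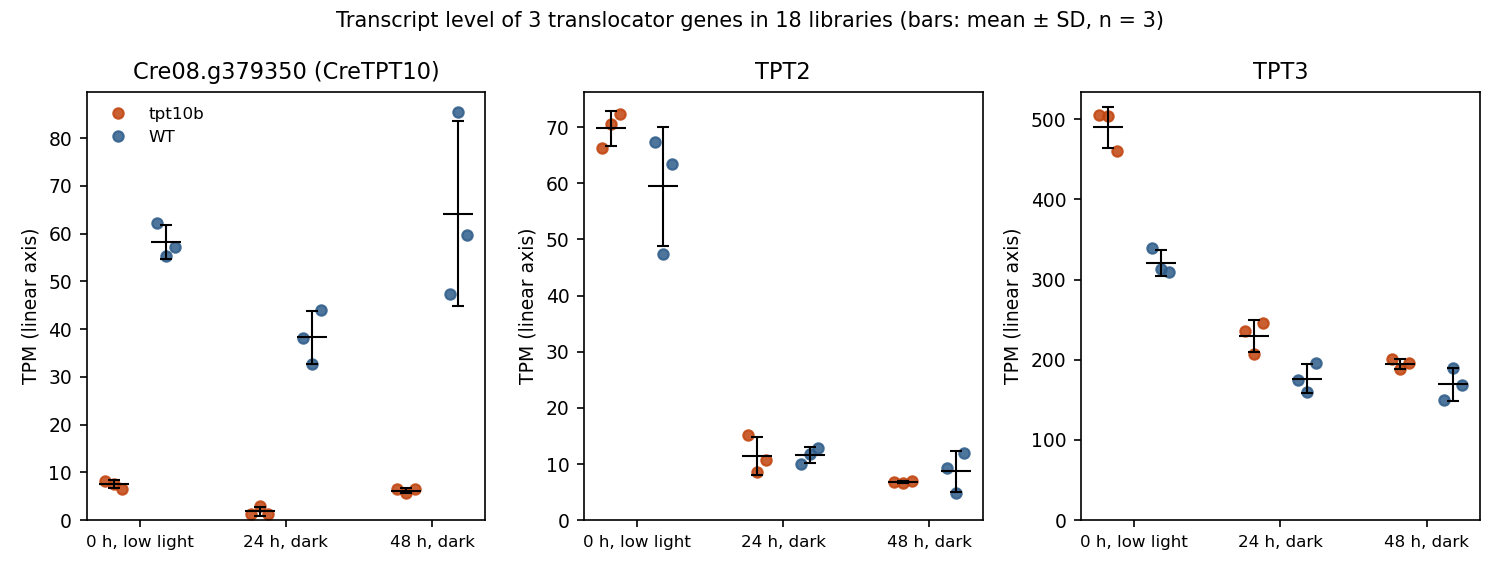
TPM of each gene in each of the 18 libraries, with tpt10b to the left of WT at each time, on linear axes that start at 0. Points are libraries and bars show the mean ± SD of 3. The targeted gene stays under 10 TPM in tpt10b, TPT2 is near 10 TPM or below in most dark libraries of both genotypes, and TPT3 is the highest of the 3 genes throughout.

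TPT3 had the highest TPM of the 3 genes in all 18 libraries. At 0 h it stood at 505, 503 and 460 TPM in tpt10b, against 339, 313 and 309 TPM in WT. At 24 h the values were 235, 207 and 245 TPM in tpt10b, against 174, 160 and 195 TPM in WT. At 48 h they were 200.3, 188 and 195 TPM in tpt10b, against 149, 190.1 and 169 TPM in WT. The tpt10b libraries lay above the WT libraries at 0 h and at 24 h, and the groups overlapped at 48 h. In WT at 0 h its mean exceeded that of 97.3% of the tested genes.

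TPT3 was higher in tpt10b in TPM as deposited, by an amount that shrank over time. The log2 difference was 0.61 ± 0.11 at 0 h (adjusted p = 1.77e-04), 0.38 ± 0.11 at 24 h (adjusted p = 0.00947) and 0.21 ± 0.11 at 48 h (adjusted p = 0.218), the last of which did not pass. At 0 h 70.6% of all tested genes had a smaller log2 difference than TPT3, and at 24 h 93.1% did. After rescaling, TPT3 differed by 0.05 ± 0.15 at 0 h (adjusted p = 0.824), 0.74 ± 0.15 at 24 h (adjusted p = 0.00132) and 0.05 ± 0.15 at 48 h (adjusted p = 0.872). The difference at 24 h is therefore the one called on both scales, and in TPM as deposited its call was lost without WT 24 h replicate 2 (0.31, adjusted p = 0.0563). All 3 tpt10b libraries at 24 h lay above all 3 WT libraries on both scales. The tpt10b 24 h libraries are those with fewer genes with reads, whose part in this difference was not tested.

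TPT3 fell in darkness in both genotypes. In tpt10b the transcript changed by -1.09 ± 0.11 at 24 h (adjusted p = 7.32e-08) and -1.32 ± 0.11 at 48 h (adjusted p = 4.51e-09) against 0 h, leaving 46.9% and 39.8% of the 0 h mean. In WT it changed by -0.86 ± 0.11 at 24 h (adjusted p = 1.48e-06) and -0.92 ± 0.11 at 48 h (adjusted p = 4.90e-07), leaving 55.1% and 52.9%. Both dark times are set against the same 0 h libraries, and in each case all 3 dark libraries lay below them. Rescaling kept the 4 calls, at -0.46 and -1.06 in tpt10b and -1.15 and -1.05 in WT. Between 24 h and 48 h TPT3 differed by -0.23 ± 0.11 in tpt10b (adjusted p = 0.0609), which passed after rescaling at -0.60 (adjusted p = 0.00202) or without tpt10b 24 h replicate 2 at -0.30 (adjusted p = 0.0230), and by -0.06 ± 0.11 in WT (adjusted p = 0.673).

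The genotypes' responses of TPT3 to darkness depended on the scale. The interaction was -0.23 ± 0.15 at 24 h (adjusted p = 0.180) in TPM as deposited and 0.69 ± 0.21 after rescaling (adjusted p = 0.0146), the opposite direction. At 48 h it was -0.40 ± 0.15 (adjusted p = 0.0442) as deposited and 0.00 after rescaling (adjusted p = 0.990), and its call was lost in 9 of the 12 fits that left out a library. For TPT2 it was -0.28 ± 0.33 at 24 h (adjusted p = 0.471) and -0.48 ± 0.33 at 48 h (adjusted p = 0.264), with 0.61 and -0.07 after rescaling. Without WT 48 h replicate 2 the 48 h interaction of TPT2 was -0.82 (adjusted p = 0.0162).

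TPT2 was bright in the light and faint in the dark in both genotypes. At 0 h it stood at 66.3, 70.6 and 72.3 TPM in tpt10b, against 67.4, 47.5 and 63.4 TPM in WT. At 24 h the values were 15.1, 8.56 and 10.7 TPM in tpt10b, against 10.05, 11.7 and 12.9 TPM in WT. At 48 h they were 6.74, 6.59 and 6.96 TPM in tpt10b, against 9.33, 4.78 and 11.95 TPM in WT. In TPM as deposited the genotypes overlapped at every time, while after rescaling the 3 tpt10b libraries lay below the 3 WT libraries at 0 h. The lowest WT value at 48 h was that of replicate 2, the library that stood apart.

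The fall of TPT2 was the steepest of the 3 genes in each genotype at each dark time, in fitted log2 difference. In tpt10b it changed by -2.54 ± 0.23 at 24 h (adjusted p = 4.10e-08) and -3.19 ± 0.23 at 48 h (adjusted p = 1.57e-09) against 0 h. In WT it changed by -2.26 ± 0.23 at 24 h (adjusted p = 1.86e-07) and -2.70 ± 0.23 at 48 h (adjusted p = 1.40e-08). Few genes fell further: 4.32% and 1.39% of tested genes had a lower log2 difference at these times in tpt10b, and 4.10% and 2.84% in WT. The 48 h mean was 9.70% of the 0 h mean in tpt10b and 14.6% in WT. Without WT 48 h replicate 2 the WT difference at 48 h was -2.37, still called. From 24 h to 48 h TPT2 fell further in tpt10b, by 0.65 (SE 0.23, adjusted p = 0.0212), a call lost without tpt10b 24 h replicate 1 (-0.45, adjusted p = 0.120) or tpt10b 48 h replicate 2 (-0.63, adjusted p = 0.0521), and differed by -0.44 ± 0.23 in WT (adjusted p = 0.140, or -0.69 with adjusted p = 0.0265 without WT 48 h replicate 3).

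Between genotypes no difference in TPT2 was called. The log2 difference of tpt10b against WT was 0.24 ± 0.23 at 0 h (adjusted p = 0.376), -0.04 ± 0.23 at 24 h (adjusted p = 0.918) and -0.24 ± 0.23 at 48 h (adjusted p = 0.528). After rescaling it was -0.31, 0.30 and -0.38, so that its sign at 0 h and at 24 h depended on the scale. With an SE of 0.23, differences of the sizes seen here could not be resolved.

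**Figure D2:**
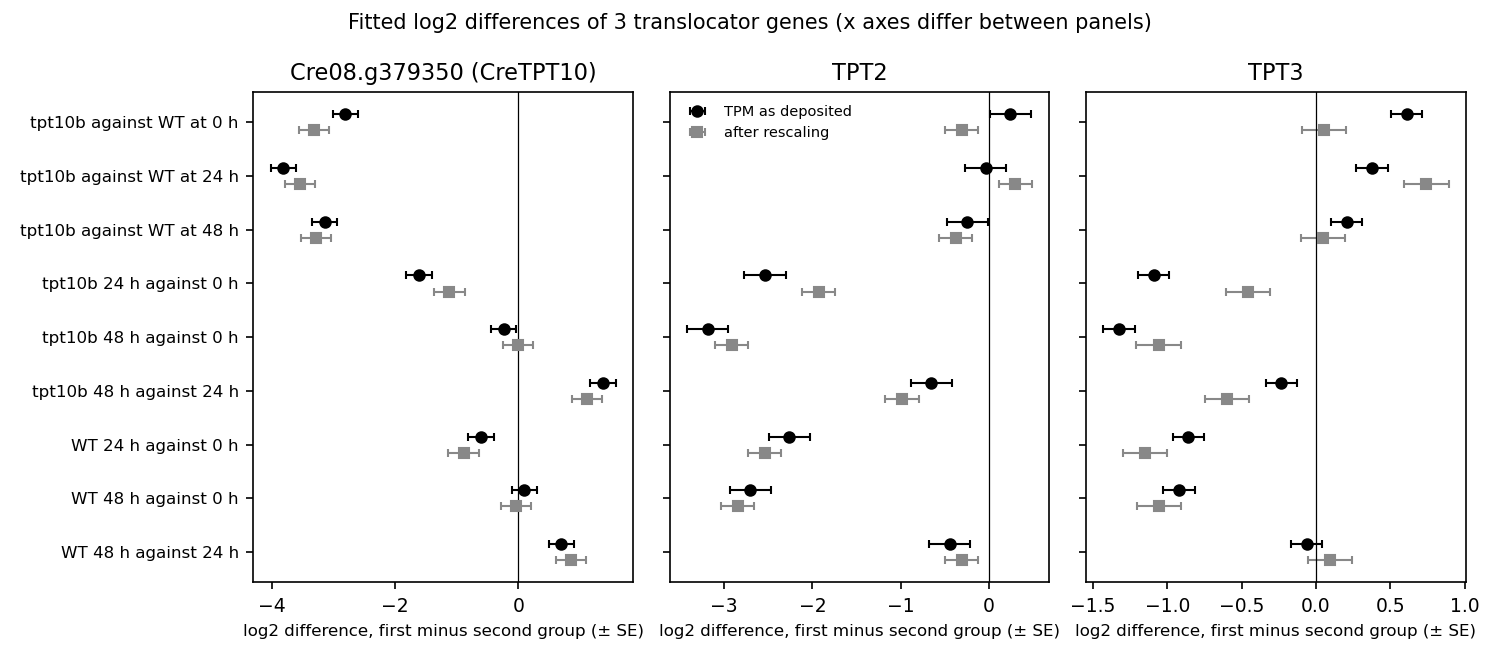
Fitted log2 differences (first group minus second) with SE for each gene, with circles for TPM as deposited and squares after rescaling, on x axes that differ between panels. Genotype differences of the targeted gene and dark responses of TPT2 hold on both scales, while TPT3 in tpt10b against WT at 0 h moves from 0.61 to 0.05.

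The number of called members can be set against the table as a whole. Between tpt10b and WT, 2 of 3 members were called at 0 h, where 59.9% of tested genes were, 2 of 3 at 24 h (40.6% of genes) and 1 of 3 at 48 h (6.59%), the targeted gene being one of them each time. At 24 h against 0 h all 3 members were called and lower in tpt10b, where 75.2% of genes were called and 57.1% were lower, and likewise in WT, where 66.4% were called and 25.8% were lower. After 48 h TPT2 and TPT3 were lower than at 0 h in both genotypes, with 74.2% of genes called and 44.1% lower in tpt10b, and 70.2% called and 32.4% lower in WT. From 24 h to 48 h the called members were TPT2, lower, and Cre08.g379350, higher, in tpt10b (66.7% of genes called), and Cre08.g379350, higher, in WT (41.5%). Of the interactions, that of Cre08.g379350 was called at 24 h (64.2% of genes) and that of TPT3 at 48 h (35.4%).

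Ratios within a library were taken of TPM + 1, so scaling reaches them only through the added 1, most at levels as low as those of Cre08.g379350 in tpt10b. The log2 ratio of TPT3 to TPT2 was 2.91, 2.82 and 2.65 in the tpt10b libraries and 2.31, 2.69 and 2.27 in the WT libraries at 0 h. At 24 h it was 3.87, 4.45 and 4.396 in tpt10b and 3.99, 3.66 and 3.83 in WT. At 48 h it was 4.70, 4.64 and 4.63 in tpt10b and 3.86, 5.05 and 3.71 in WT. Every dark library exceeded every 0 h library, in both genotypes. In darkness the ratio was higher than at 0 h by 1.62 log2 units, 3.08-fold (exact two-sided permutation within genotype, p = 1.42e-04, the smallest that the 7056 arrangements allow, adjusted p = 0.00128 over the 9 ratio tests made).

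The same ratio was higher in tpt10b than in WT on average, but did not pass the adjustment. The difference was 0.41 log2 units, 1.33-fold, over the 3 times (exact two-sided permutation within time, p = 0.0185, adjusted p = 0.0833). The adjustment ran over all 9 ratio tests, among them those of 3 libraries against 3, which could not pass. At single times it was 0.37, 0.41 and 0.45, with overlap between genotypes each time and exact permutation p = 0.2, 0.2 and 0.4, where 3 libraries against 3 cannot go under 0.1. WT 48 h replicate 2 had the highest ratio of all 18 libraries. Without it the difference was 0.55 (adjusted p = 0.0045), and without tpt10b 24 h replicate 1 it was 0.47 (adjusted p = 0.0428), both by exact permutation. With any other single library left out the difference was 0.33 to 0.45 and did not pass (exact permutation, adjusted p = 0.0529 to 0.15).

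Within WT the ratio of the 2 less abundant genes differed between light and darkness. At 0 h Cre08.g379350 and TPT2 were level, with log2 ratios of -0.11, 0.22 and -0.15, so their order did not exceed the spread between libraries. In the dark Cre08.g379350 led TPT2 in each of the WT libraries, with log2 ratios of 1.83, 1.41 and 1.70 at 24 h and 2.23, 3.90 and 2.23 at 48 h. The mean ratio was higher by 1.66 log2 units at 24 h (3.16-fold) and 2.80 at 48 h (6.96-fold) than at 0 h, without overlap (exact permutation p = 0.1 for each, the smallest that 3 against 3 allow). Without WT 48 h replicate 2 the difference at 48 h was 2.24. Against TPT3, Cre08.g379350 stood higher by 0.26 log2 units at 24 h and 1.02 at 48 h than at 0 h in WT, again without overlap (exact permutation p = 0.1 for each).

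Expressed as shares of the summed TPM of the 3 genes, TPT3 held 85.3% to 87.1% in tpt10b and 71.9% to 75.2% in WT at 0 h. After 24 h its share spanned 93.5% to 95.3% in tpt10b and 77.5% to 78.3% in WT. After 48 h it spanned 93.6% to 93.9% in tpt10b, against 67.8% to 72.5% in WT. The sum covers these 3 genes only, and any other family member without a symbol is left out. It includes the targeted gene, so the low level of that gene in tpt10b raises the share of TPT3 there by arithmetic. At 48 h TPT3 itself averaged 195 TPM in tpt10b and 169 TPM in WT, a difference that was not called. The share of Cre08.g379350 in WT was 13.3% in all 3 libraries at 0 h, then between 16.0% and 17.4% after 24 h and between 23.0% and 30.5% after 48 h. In tpt10b it held at most 1.43%, 1.34% and 3.10% at these times. In tpt10b at 48 h Cre08.g379350 and TPT2 were again close, at 6.20 and 6.76 TPM on average, with log2 ratios of -0.20 to -0.04. The summed TPM was 567 ± 24.5 in tpt10b, against 438 ± 27.5 in WT, at 0 h. It was 243 ± 20.9 in tpt10b, against 226 ± 24.2 in WT, at 24 h, and 208 ± 6.56 in tpt10b, against 242 ± 37.2 in WT, at 48 h (SD, n = 3 each), and these sums depend on the scaling.

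**Figure D3:**
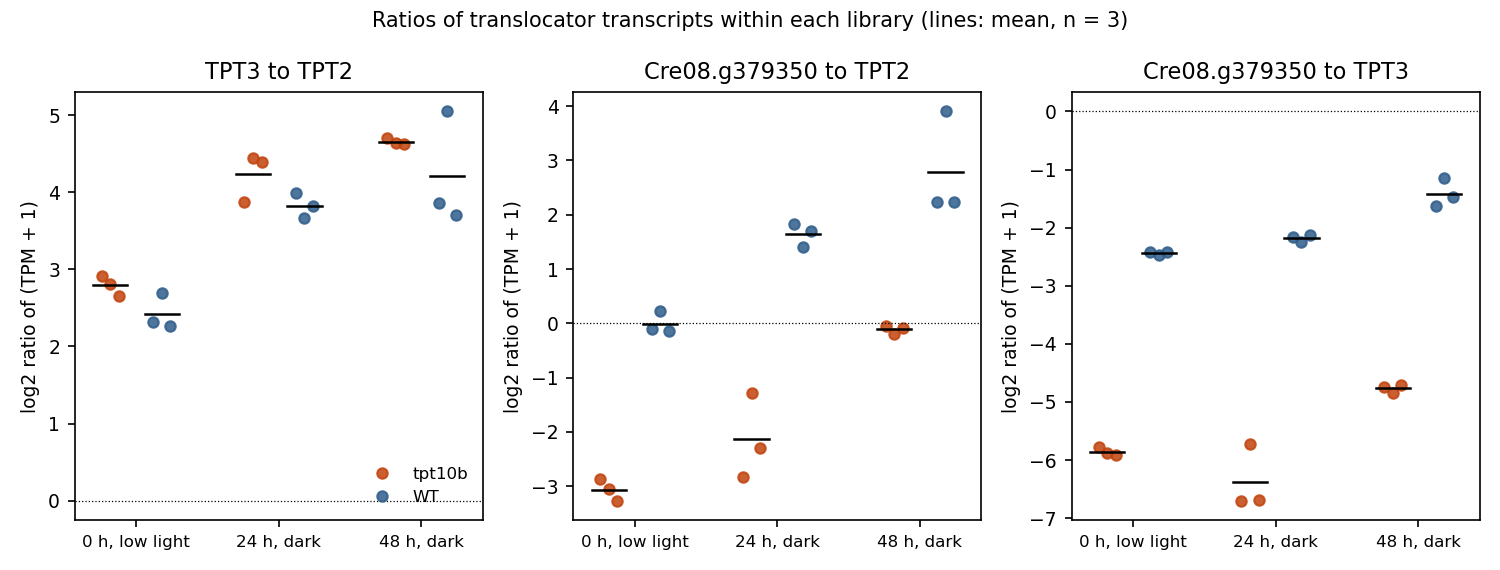
Log2 ratios of (TPM + 1) between pairs of translocator genes within each library, with tpt10b to the left of WT at each time. Points are libraries, lines are means of 3 and the dotted line marks equal levels. TPT3 to TPT2 is higher in every dark library than in every 0 h library, and Cre08.g379350 to TPT2 starts near 0 in WT and ends at 2.23 or above at 48 h.

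Genes that kept the steadiest ratio to a member were sought among named genes that averaged 5 TPM or more, by the SD of the log2 ratio to that member over libraries. For TPT3, over all 18 libraries, they were CAX1 (SD 0.15), CLPR1 (0.15) and CLPR3 (0.15), CYN37 (0.17) and GDAK1 (0.17), where the median over 3106 candidate genes was 0.72. CLPR1 and CLPR3 encode subunits of the Clp protease of the chloroplast. For TPT2 they were the initiation factor gene EIF3K (0.21), AGP1 (0.22), a subunit of ADP-glucose pyrophosphorylase in starch synthesis, PRPL9 (0.24), a plastid ribosomal protein, PSBP3 (0.25) and the thioredoxin TRXX1 (0.25), where the median was 1.204. For Cre08.g379350, over the 9 WT libraries, they were UXS1 (0.14), PSB33 (0.18), CGL52 (0.21), MDAR1 (0.21), a monodehydroascorbate reductase, and SECA2 (0.23), where the median was 0.76. The members were not among these genes for each other: the SD of the log2 ratio was 0.88 between TPT3 and TPT2 over 18 libraries, and 0.48 between Cre08.g379350 and TPT3 and 1.32 between Cre08.g379350 and TPT2 over the 9 WT libraries. Among the candidates TPT3 ranked 411 for Cre08.g379350 and 886 for TPT2. TPT2 ranked 2033 for TPT3 and 2673 for Cre08.g379350. The genes named are the lowest of all candidates in these same data, so a pair fixed beforehand need not reach their SDs.

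Other organelle carriers moved in both directions in darkness. Of 17 carrier symbols sought 7 were in the table and tested, and no other symbol of the TPT series was. At 24 h against 0 h 3 of the 7 rose and 4 fell in tpt10b, and 3 rose and 1 fell in WT (3 and 3 in WT after rescaling). Of all tested genes 18.1% rose and 57.1% fell in tpt10b, and 40.6% rose and 25.8% fell in WT, in TPM as deposited. After rescaling 5044 of 14731 rose and 5609 fell in tpt10b, and 4636 rose and 5084 fell in WT. The median log2 difference of the 7 carriers, as deposited, was -1.30 in tpt10b, where that of all tested genes was -0.53. In WT it was -0.03, where that of all genes was 0.21. Those that rose were LCI20, a relative of oxoglutarate and malate carriers (0.87 in tpt10b, 0.74 in WT), and the ADP/ATP carriers ANT1 (0.41 and 1.21) and AAA3 (0.61 and 1.06). In WT ANT1 averaged 1820 ± 88.7 TPM at 0 h, 4202 ± 142 TPM at 24 h and 2188 ± 402 TPM at 48 h (SD, n = 3 each). OMT1, an oxoglutarate and malate translocator, fell in both (-1.30 in tpt10b and -0.69 in WT). OMT2 (-2.43), AAA1 (-1.44) and MEX1 (-1.43), the maltose exporter of the chloroplast, fell in tpt10b. In WT they differed by -0.45, -0.21 and -0.03 at 24 h, none called, while after rescaling OMT2 (-0.74, adjusted p = 8.59e-04) and AAA1 (-0.50, adjusted p = 0.00943) were called lower in WT too. At 48 h against 0 h 3 of the 7 rose and 4 fell in tpt10b, and 2 rose and 4 fell in WT. Of all genes 30.1% rose and 44.1% fell in tpt10b then, and 37.7% rose and 32.4% fell in WT, in TPM as deposited. AAA1 was lower in WT at 48 h (-1.09, limma adjusted p = 8.55e-05). The WT mean of MEX1 was 10.8 TPM at 0 h and 5.71 TPM at 48 h. GPT3, of the related glucose 6-phosphate translocators, was added to the list after the symbols had been read. It averaged 22.3 ± 1.21, 18.1 ± 2.94 and 22.6 ± 0.688 TPM at 0 h, 24 h and 48 h in tpt10b, and 15.8 ± 3.15, 15.5 ± 1.79 and 22.1 ± 2.08 TPM in WT (SD, n = 3 each), and its change at 24 h was not called in either.

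Most tested enzymes of the Calvin cycle and glycolysis, the pathways that triose phosphates connect, fell in darkness. Of 35 symbols sought 26 were in the table, and 25 were tested, PYK6 being under the filter. At 24 h against 0 h 1 rose and 20 fell in tpt10b, with a median of -1.28 (5 and 19 after rescaling). In WT 3 rose and 15 fell, with a median of -0.53 (2 and 18 after rescaling). Of all genes 18.1% rose and 57.1% fell in tpt10b, and 40.6% rose and 25.8% fell in WT, in TPM as deposited. After rescaling 5044 of 14731 rose and 5609 fell in tpt10b, and 4636 rose and 5084 fell in WT. At 48 h against 0 h 3 rose and 16 fell in tpt10b, with a median of -1.38, where that of all genes was -0.20, and 3 rose and 15 fell in WT, with a median of -1.02, where that of all genes was 0.09. Of all genes 30.1% rose and 44.1% fell in tpt10b at that time, and 37.7% rose and 32.4% fell in WT. In WT at 48 h 5 rose without WT 48 h replicate 2. At 24 h the 3 smallest adjusted p-values among those that fell, in either genotype, were those of the phosphoribulokinase PRK1 (-5.14 ± 0.23 in tpt10b, -3.67 ± 0.23 in WT), the phosphoglycerate kinase PGK1 (-2.73 ± 0.14 and -1.89 ± 0.14) and the ribose 5-phosphate isomerase RPI1 (-2.04 ± 0.10 and -1.90 ± 0.10). The triose phosphate isomerase TPIC1 changed by -3.30 ± 0.14 in tpt10b and -2.30 ± 0.14 in WT at 48 h. The aldolase FBA1 went the other way, by 2.47 ± 0.11 in tpt10b and 3.16 ± 0.11 in WT at 24 h. The pyruvate kinase PYK4 rose by 1.12 ± 0.12 in WT at 24 h.

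Between genotypes the enzyme counts followed the scale. Percentages of all genes given here are for TPM as deposited. After rescaling 1930 of the 14731 tested genes were higher in tpt10b and 3119 lower at 0 h. At 24 h 3029 were higher and 3014 lower, and at 48 h 449 were higher and 363 lower. Of the 25 enzymes 16 were higher in tpt10b at 0 h and 0 lower (2 and 5 after rescaling), beside 50.8% of all genes higher and 9.19% lower. PYK4 (1.19 ± 0.12) and the glucose phosphate isomerase PGI1 (0.95 ± 0.14) had the smallest adjusted p-values of the 25 and were called on both scales. At 24 h 1 was higher and 11 lower (7 and 4 after rescaling), beside 5.76% of all genes higher and 34.8% lower. TPIC1 was the higher one (0.44 ± 0.14, adjusted p = 0.0224, and 0.80 after rescaling), and the lower ones included FBA3 (-1.60 ± 0.20), PFK1, a phosphofructokinase (-1.55 ± 0.26), and SBP1, sedoheptulose bisphosphatase of the Calvin cycle (-1.26 ± 0.17), each called on both scales. At 48 h 2 were higher and 1 lower (2 and 2 after rescaling), beside 5.2% of all genes higher and 1.39% lower, with FBP1 (0.94 ± 0.20) and PYK4 (0.51 ± 0.12) above and the transketolase TRK1 (-0.57 ± 0.14) below. Counts at 48 h moved with single libraries: without WT 48 h replicate 1 there were 4 higher and 2 lower, and without each tpt10b 48 h library 0 or 1 higher and 0 lower. At 24 h the higher count was 0 without WT 24 h replicate 2, 0 without the first tpt10b 24 h library and 2 without the second. Beside the same shares of all genes, 5 of the 7 carriers were higher in tpt10b at 0 h and 0 lower (0 and 1 after rescaling, with 0 higher without WT 0 h replicate 2, 1 without either WT 0 h replicate 3 or the second tpt10b 0 h library, and 2 without tpt10b 0 h replicate 1), 1 was higher and 5 lower at 24 h (1 and 2 after rescaling), and 2 were higher and 0 lower at 48 h (5 higher without WT 48 h replicate 1, and 1 without WT 48 h replicate 2 or any tpt10b 48 h library).

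The 4 glycerol 3-phosphate dehydrogenase genes, whose enzymes draw on the triose phosphate pool to make glycerol 3-phosphate, did not move as one. GPD2 was higher at 48 h than at 0 h, by 2.82 ± 0.19 in tpt10b and 1.11 ± 0.19 in WT. Over the same span GPD3 fell by 2.03 (SE 0.25) in WT. GPD1 differed by 0.52 ± 0.15 in WT and GPD4 by -0.85 ± 0.23 in tpt10b, both called on both scales. GPD1 in tpt10b was called only after rescaling (0.49). At 24 h against 0 h GPD2 differed by 1.77 ± 0.19 in tpt10b, but by -0.03 ± 0.19 in WT (limma adjusted p = 0.887). GPD4 differed by -2.62 ± 0.23 in tpt10b (-2.02 after rescaling), and by -0.43 ± 0.23 in WT, called only after rescaling (-0.71). GPD3 differed by -0.84 ± 0.25 in tpt10b, not called after rescaling, and by -0.81 ± 0.25 in WT. GPD1 differed by -0.02 ± 0.15 and 0.41 ± 0.15. Of all genes, as deposited, 75.2% were called at 24 h and 74.2% at 48 h in tpt10b, and 66.4% and 70.2% in WT. GPD2 (-1.41 ± 0.19) and GPD3 (-1.13 ± 0.25) were lower in tpt10b at 0 h on both scales, and GPD4 was higher (0.84 ± 0.23, adjusted p = 0.00521), with 0.29 and no call after rescaling. At 24 h GPD3 (-1.16 ± 0.25) and GPD4 (-1.35 ± 0.23) were lower in tpt10b on both scales. GPD2 differed by 0.39 ± 0.19 at 24 h (adjusted p = 0.110), and was called higher after rescaling (0.75, adjusted p = 0.00806). None of the 4 was called at 48 h. Of all tested genes 59.9% were called between genotypes at 0 h, 40.6% at 24 h and 6.59% at 48 h, in TPM as deposited. After rescaling 5049 of 14731 were called at 0 h, 6043 at 24 h and 812 at 48 h.

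**Figure D4:**
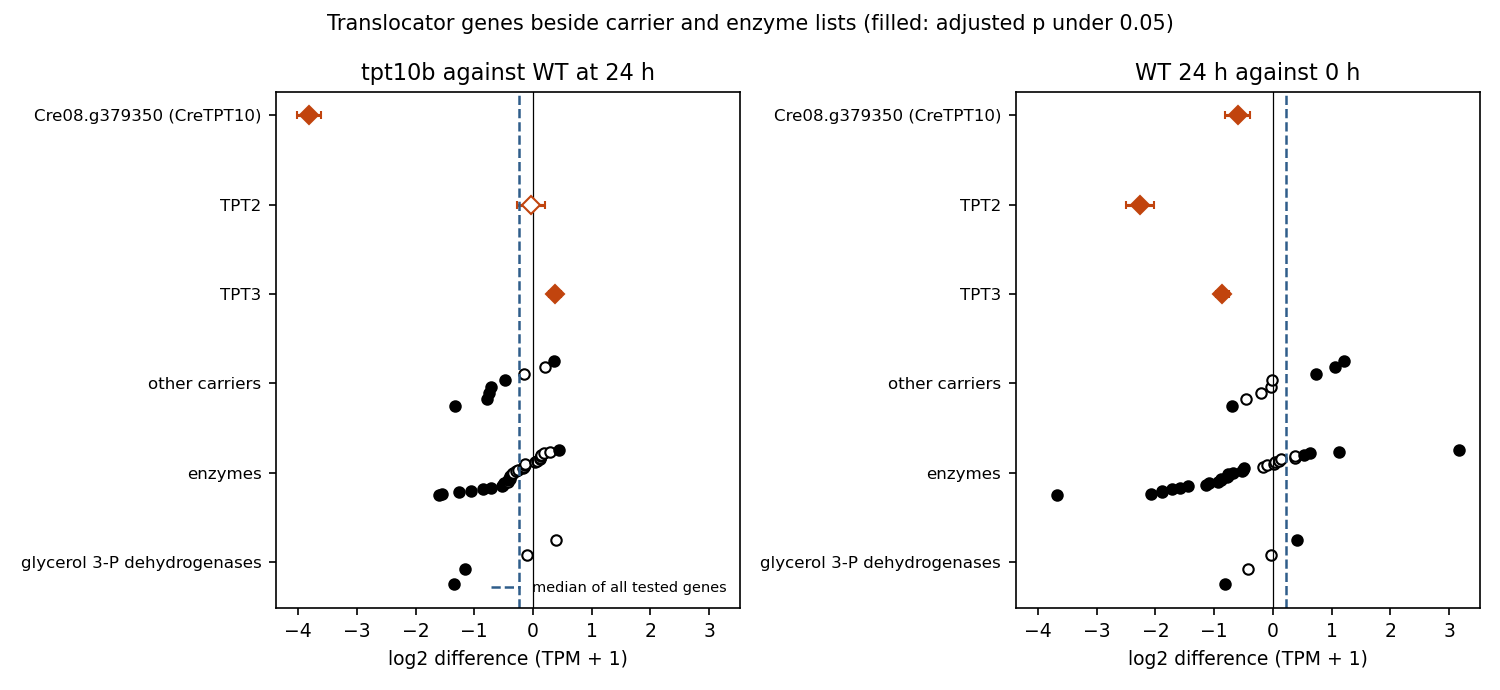
Log2 differences of the 3 members (diamonds with SE) beside other carriers, enzymes and glycerol 3-phosphate dehydrogenases (circles, 1 per gene), filled where the adjusted p was under 0.05, for tpt10b against WT at 24 h and for WT at 24 h against 0 h. The dashed line is the median of all tested genes. TPT3 lies at the upper end in the first panel at 0.38, and all 3 members lie below the median of all genes in the second.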

How the data were processed

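The authors deposited TPM for 17693 genes, of which 4408 have a symbol. The 18 libraries were made with random hexamer primers, per the labels. HISAT2 2.0.5 and StringTie 1.3.3b are named in the submitters' processing notes without a role, and the gene models are those of CC-4532 v6.1 by the table's legend. The counting tool, strandedness and any poly(A) selection are not given in the sources used here, so reads of overlapping or antisense genes may be mixed. TPM times the deposited gene length, an annotation value with no further unit than base pairs (other), and divided by the library's smallest product above 0, taken as 1 read, gave whole numbers of reads, to a tolerance of 0.01, in 100% of genes. Of the gene lengths 94.4% divide by 3, as coding lengths do, and no annotation was checked for them. No sequence of these genes was used.

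Groups and replicates were taken from the titles. The descriptions number the tpt10b 48 h replicates 4 to 6, and should that mark a batch it cannot be told apart from that group. Genes with at least 1 TPM in at least 3 libraries (14731) were fitted as log2(TPM + 1) with limma 3.58.1 in R 4.3.3, 1 mean per group, a variance trend and 11 contrasts, adjusted within each contrast over all genes tested. The test was also tried on simulated data, drawn with independent noise per gene and no shift between groups common to all genes. P-values measure the spread between these samples, which the labels call biological replicates. Ratios were tested by exact permutation in Python 3.11.15 with numpy 2.4.6 and pandas 2.3.3, and figures drawn with matplotlib 3.10.9. Alternatives were a pseudocount of 0.1, no filter or a mean of 5 TPM, rescaling, limma-voom on recovered reads, a replicate block and each library left out. Rescaling together with leaving out WT 48 h replicate 2, and 7 added list symbols, were chosen after seeing the data. The members are always named, as are, per member, the 5 genes of steadiest ratio and, per list, comparison and direction, up to 4 genes of smallest adjusted p. Values of list genes named beyond these (such as GPT3 and genes given for both genotypes) were chosen after they were seen. The members and lists were chosen with earlier results of these data known.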

Additional observations from a re-analysis of the deposited data

Results flagged for a closer look

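In TPM as deposited the interaction of genotype with darkness was called for 1 of the 3 genes at 24 h and for 1 at 48 h. For Cre08.g379350 the interaction with 24 h of darkness was -1.01 (adjusted p = 0.00661 in limma), and -1.26 to -0.86 with single libraries left out. After rescaling it was -0.23 and not called (limma adjusted p = 0.621). For TPT3 the interaction with 48 h of darkness was -0.40 (adjusted p = 0.0442 in limma), with 0.00 after rescaling (limma adjusted p = 0.990). Its call was lost in 9 of the 12 fits that left out a library. At 24 h the TPT3 interaction was -0.23 as deposited, not called, and 0.69 after rescaling (limma adjusted p = 0.0146). Over the same comparisons 64.2% and 35.4% of all tested genes were called.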

How the results depend on the processing

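Of 219 values recomputed under alternatives other than a left-out library, 197 kept their direction and their side of the threshold, and 23 of 42 results did so under all alternatives run. The lower Cre08.g379350 in tpt10b and the falls of TPT2 and TPT3 at 24 h and 48 h against 0 h were among them. Ratio tests of 3 libraries against 3 cannot go under 0.1, so their side of the threshold was fixed in advance. Ratio tests were rerun only with the other pseudocount and with libraries left out. The causes of the following changes were not tested. Median-of-ratios rescaling gave log2 differences between tpt10b and WT of -0.31 for TPT2 and 0.052 for TPT3 at 0 h and 0.30 for TPT2 at 24 h, -0.60 for TPT3 at 48 h against 24 h in tpt10b, -0.034 for Cre08.g379350 at 48 h against 0 h and 0.095 for TPT3 at 48 h against 24 h in WT. It gave interactions at 24 h of -0.23 for Cre08.g379350, 0.61 for TPT2 and 0.69 for TPT3, and at 48 h of 0.028 for Cre08.g379350 and -0.0049 for TPT3. Rescaling without WT 48 h replicate 2, chosen after seeing the data, gave -0.39 for Cre08.g379350 at 48 h against 0 h and 0.50 at 48 h against 24 h in WT, and interactions at 48 h of 0.38 for Cre08.g379350 and 0.21 for TPT3. Limma-voom gave 0.10 for TPT2 between genotypes at 24 h, -0.50 for TPT3 at 48 h against 24 h in tpt10b, -0.0040 for Cre08.g379350 at 48 h against 0 h in WT, and TPT3 interactions of 0.023 at 24 h and -0.39 at 48 h. With no filter TPT3 passed at 48 h against 24 h in tpt10b (-0.23).

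Replicate numbers, as given in the titles, did not visibly pair the samples. Of 45 correlations of same-numbered deviations 6 exceeded 0.1, and for 1 of 18 libraries the best match carried the same number. No chance level was computed for these counts. With the replicate block the 48 h interaction of TPT3 was -0.40 and no longer passed (adjusted p = 0.0628).

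With single libraries left out the ranges were -0.24 to 0.14 for TPT2 and 0.31 to 0.45 for TPT3 between genotypes at 24 h, and -0.58 to 0.0064 for TPT2 at 48 h. At 48 h against 24 h they were -0.82 to -0.45 for TPT2 and -0.30 to -0.18 for TPT3 in tpt10b, and 0.47 to 0.89 for Cre08.g379350, -0.69 to -0.11 for TPT2 and -0.15 to 0.025 for TPT3 in WT. In WT against 0 h the range for Cre08.g379350 was -0.70 to -0.50 after 24 h and -0.13 to 0.29 after 48 h. The 48 h interactions ranged from -0.82 to -0.24 for TPT2 and from -0.49 to -0.32 for TPT3, and the genotype difference of the TPT3 to TPT2 ratio from 0.33 to 0.55.

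Counts of called genes over the whole table moved by over 1.5 times in these cases. With the filter at a mean of 5 TPM, which tests fewer genes, the counts against 0 h were 6670 in place of 11075 at 24 h and 6676 in place of 10937 at 48 h in tpt10b, and 5996 in place of 9776 and 6457 in place of 10337 in WT. Those at 48 h against 24 h were 5991 in place of 9820 in tpt10b and 4044 in place of 6115 in WT, and those of the interactions 5471 in place of 9456 at 24 h and 3333 in place of 5212 at 48 h. Between genotypes 8831 genes at 0 h became 5297 with that filter and 5049 with rescaling, and 5980 at 24 h became 3448 with that filter. At 48 h 971 became 484 with a pseudocount of 0.1, 2845 without WT 48 h replicate 1, 377 without WT 48 h replicate 2 and 246 to 302 without each tpt10b 48 h library. The count was 409 with rescaling and without WT 48 h replicate 2, a setting chosen after seeing the data. Rescaling also moved the share of higher calls from 84.7% to 38.2% at 0 h, 14.2% to 50.1% at 24 h and 78.9% to 55.3% at 48 h.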
